A study of Mus musculus with 22 samples.

Results

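The samples described here are the GFP- nuclei of the mouse lumbar spinal dorsal horn at postnatal day 80 (P80) and postnatal day 21 (P21), 4 libraries at P80 and 3 at P21, which is 7 of the 22 libraries of the series. They were taken by the column names of the deposited table that holds GFP+ and GFP- nuclei of all ages: the libraries ES2, ES4, ES6 and ES8 at P80, and ES12, ES14 and ES16 at P21. All animals were of the strain pDyn-Sun1-GFP, in which a GFP fusion of the nuclear envelope protein Sun1 marks nuclei of the prodynorphin (pDyn) lineage. Every group, the P21 one included, is therefore of that transgenic strain. Both dorsal horns were dissected, nuclei were released and flow-sorted, and each animal gave a GFP+ sample (pDyn lineage) and a GFP- sample (all other nuclei) of 5000 nuclei. The 11 animals of the series were 4 mice of P7, 3 of P21 and 4 of P80. The labels give each animal's sex, but the columns carry no animal number, so neither sex nor the animal shared by a GFP+ and a GFP- sample could enter a comparison. What limits the GFP- nuclei as a population is that they are defined by the absence of GFP: neurons outside the pDyn lineage and every glial, vascular and connective tissue nucleus in the dissected piece are sequenced together.

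Myelin of the mouse spinal cord is largely laid down in the first postnatal weeks and matures afterwards. Oligodendrocytes arise from dividing precursors through a short-lived stage of newly formed, premyelinating cells, which is marked by genes such as Gpr17 and Itpr2, and then switch to the genes of compact myelin. Myelin membrane is rich in cholesterol, which hardly enters from the blood and is made within the nervous system by the mevalonate pathway, whose genes are switched on together by the transcription factor SREBP2 when sterols are low. The RNA here is nuclear, so a level is closer to recent transcription than to the store of cytoplasmic message.

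Levels are given as the deposited normalized values, in which each library's gene counts share 1 scaling factor, always in the library order ES2, ES4, ES6 and ES8 for P80, then ES12, ES14 and ES16 for P21. The P80 libraries held between 4244987 and 6591064 reads assigned to genes, and the P21 libraries between 4438486 and 10849169. Pdyn, the gene of the sorted lineage, stood at 15.7, 12.3, 12.03 and 0 in P80 GFP- libraries and at 2.97, 7.59 and 11.5 in P21 GFP- libraries. The 2 age groups overlapped for Pdyn.

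Some libraries stood apart before any age comparison. ES16 carried 1.26% of its reads on mitochondrially encoded genes, against 0.0808% to 0.171% in the other 6 libraries. Its summed normalized value of microglial markers was 30750, of endothelial markers 15570 and of meningeal fibroblast markers 15310. The highest values of any other library for these lists were 6771, 2166 and 2666. ES8 at P80 and ES12 at P21 were rich in myelin genes and poor in neuronal ones: their summed myelin values were 153000 and 149100, against 41070 to 76870 in the other 5 libraries, and their summed pan-neuronal values were 47680 and 49960, against 69620 to 144900. Defining markers of neurons, oligodendrocytes, their precursors, astrocytes, microglia, endothelium, mural cells, meningeal fibroblasts, ependyma and Schwann cells were detected in all 7 libraries. Only Hba-a1 of red blood cells and Chat of cholinergic neurons were at 0 in at least 1 library. In these pooled nuclei, fewer cells of a type and less RNA per cell cannot be told apart.

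Of 18614 genes tested with limma, 363 (1.95%) had a Benjamini-Hochberg adjusted p under 0.05 between P80 and P21: 146 (0.784%) were higher at P80 and 217 (1.17%) were lower. Genes called lower at P80 had wider differences: their median log2 difference was -1.08 and 125 of them changed at least 2-fold. Among those called higher the median was 0.85 and 55 changed at least 2-fold. ES16 was the highest of the 7 libraries in 141 of the 217 genes called lower and the lowest of the 7 in 101 of the 146 called higher. The same count over all genes tested was not made. The part of ES16 in the wider differences was not tested. Without adjustment 1457 genes (7.83%) were higher and 2335 (12.5%) lower at p under 0.05. The 4 P80 libraries lay wholly above the 3 P21 libraries for 634 genes (3.41%) and wholly below them for 778 genes (4.18%). Across all genes tested the median log2 difference was -0.03.

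**Figure D1:**
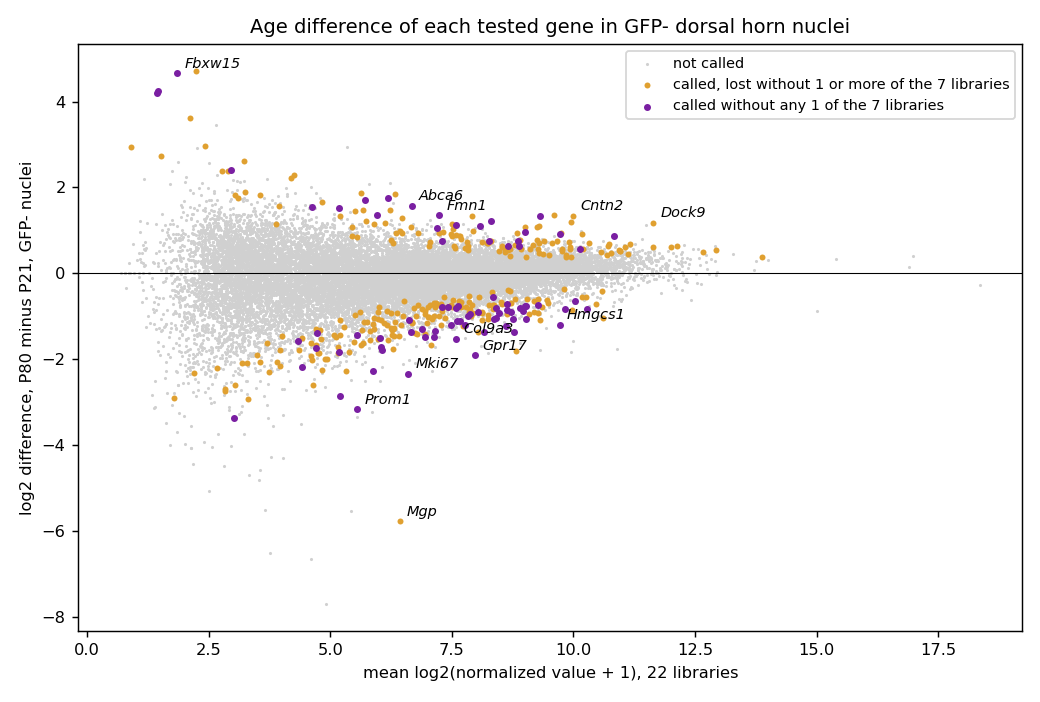
Each point is 1 of the 18614 genes tested. The horizontal axis is its mean log2(normalized value + 1) over 22 libraries and the vertical axis its log2 difference, P80 minus P21, in GFP- nuclei. Grey genes were not called, orange genes were called but lost the call without at least 1 of the 7 libraries, and the 80 purple genes were called with each library left out in turn. The gene called lower with the widest difference among those labelled is Mgp at -5.77, and Fbxw15 is the labelled gene that lies highest at 4.66.

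The number of calls depended on single libraries and on the spread that all 22 libraries share in the fit. Without ES16, 174 genes were called, 44 (0.236%) higher and 130 (0.698%) lower at P80. Of the original calls, 34 higher and 75 lower genes were among them. With ES14 left out 2637 genes were called, with ES8 left out 1987 and with ES2 left out 178. Genes called lower made up 0.559% of all genes without ES2, 0.698% without ES4, 0.672% without ES6, 5.33% without ES8, 2.75% without ES12 and 8.61% without ES14. The median within-group SD per gene was 0.383 log2 units in P80 GFP- libraries and 0.503 in P21 GFP- libraries, while it was 0.203 and 0.216 in P80 and P21 GFP+ libraries, whose smaller spread enters the shared estimate. With only the 11 GFP- libraries of the 3 ages in the fit, 5 genes were called, 1 (0.00537%) higher and 4 (0.0215%) lower. The calls that held with each of the 7 libraries left out in turn were 25 higher (0.134%) and 55 lower (0.295%) at P80.

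**Figure D2:**
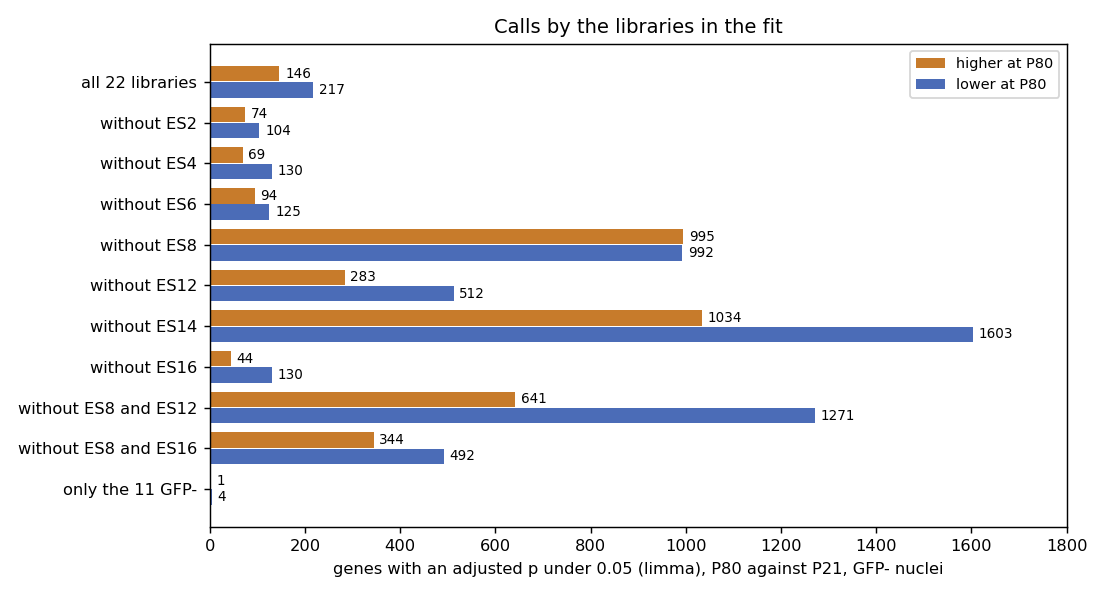
Bars give the number of genes called higher (orange) and lower (blue) at P80 than at P21 in GFP- nuclei, on a linear axis from 0, for the fit of all 22 libraries, for fits without 1 or 2 named libraries and for a fit of the 11 GFP- libraries alone. The counts run from 1 higher and 4 lower with the 11 GFP- libraries to 1034 higher and 1603 lower without ES14.

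Cholesterol synthesis genes were lower in P80 than in P21 GFP- nuclei. Of the 21 genes tested, 14 were called lower and none higher, all 21 had a difference below 0, and in 19 the P80 libraries lay wholly below the P21 libraries, beside 4.18% of all genes. The median log2 difference of the list was -0.82, beside -0.03 over all genes, and 14 of 21 compares with 1.17% of all genes called lower. This list and the others below were chosen with earlier results of these data known. The shares of all genes set beside them are therefore a description and no independent test. The called genes lie in both branches of the pathway, among them Hmgcs1, Mvk, Pmvk, Idi1 and Fdps in the mevalonate branch, Sqle, Lss, Cyp51, Hsd17b7 and Ebp in the sterol branch, and Insig1, a protein that holds the SREBP complex in the endoplasmic reticulum.

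The promoters of 4 of the genes called lower with each library left out are shown, because the genes moved together and belong to a group known to share regulation. Each is the 250 bases before the RefSeq start of the gene in build GRCm38.p6, read 5′ to 3′ on the strand of the gene. Capitals mark CCAAT, the box bound by NF-Y, or its reverse complement ATTGG, and in Hmgcs1 also 1 sterol response element, the SREBP site written TCACNCCAC, found here as TCACCCCAC 137 bases before the start.
Hmgcs1, chr13:119690101-119690350, plus strand: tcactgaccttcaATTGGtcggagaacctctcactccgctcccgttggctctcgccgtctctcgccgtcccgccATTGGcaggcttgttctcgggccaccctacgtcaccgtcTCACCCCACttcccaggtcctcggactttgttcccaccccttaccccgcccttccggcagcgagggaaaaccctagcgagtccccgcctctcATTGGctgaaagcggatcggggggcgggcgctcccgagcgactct
Mvk, chr5:114444019-114444268, plus strand: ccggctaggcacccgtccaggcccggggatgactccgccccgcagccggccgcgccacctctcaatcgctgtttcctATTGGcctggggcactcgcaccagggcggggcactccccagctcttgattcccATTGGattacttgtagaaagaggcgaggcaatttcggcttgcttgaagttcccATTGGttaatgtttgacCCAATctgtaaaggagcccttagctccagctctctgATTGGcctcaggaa
Hsd17b7, chr1:169969206-169969455, minus strand: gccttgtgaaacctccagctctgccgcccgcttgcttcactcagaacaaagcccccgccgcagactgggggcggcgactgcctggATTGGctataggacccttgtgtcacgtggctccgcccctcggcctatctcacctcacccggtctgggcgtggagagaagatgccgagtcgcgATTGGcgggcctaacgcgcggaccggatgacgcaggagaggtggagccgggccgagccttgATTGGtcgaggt
Lss, chr10:76531355-76531604, plus strand: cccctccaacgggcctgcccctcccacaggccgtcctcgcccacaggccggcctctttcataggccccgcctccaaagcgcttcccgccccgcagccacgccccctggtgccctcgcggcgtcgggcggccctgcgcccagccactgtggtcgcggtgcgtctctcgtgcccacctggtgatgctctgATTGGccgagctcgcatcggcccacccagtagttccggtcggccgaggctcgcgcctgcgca
Both strands were searched, and the 2 motifs overlapped in 0 of these windows. An entry was found for 15 of the 21 genes. At least 1 CCAAT box lay in a window of 15 of 15, against 37.5% of 27025 genes with an entry and 39.9% of the 11610 tested genes with one. The 15 include Dhcr7, Sc5d, Nsdhl, Mvd, Srebf2 and Tm7sf2, which were not called. Dhcr7 and Pmvk have more than 1 window, and not every window of these 2 genes held a box. The sterol response element, in this exact spelling, lay in 1 of 15, against 1.22% of all genes. The counts of CCAAT boxes were 3 in Hmgcs1, 5 in Mvk, 3 in Hsd17b7 and 1 in Lss. A match describes these letters and is no measured binding site.

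Hmgcs1, the cytosolic HMG-CoA synthase, stood at 624, 782, 572 and 911 in P80 libraries, against 2155, 1372 and 1460 in P21 libraries. Every P80 library was below every P21 library, with ES12 highest. The log2 difference was -1.20 ± 0.17 (SE) with a limma adjusted p of 0.00132, and -1.27 without ES16.

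Mvk, the mevalonate kinase whose promoter holds the 5 CCAAT boxes, stood at 81.0, 74.9, 64.2 and 75.1 at P80, against 214, 137 and 134 at P21, a difference of -1.09 ± 0.21 (adjusted p 0.0110). Fdps, which makes farnesyl diphosphate, stood at 20.9, 33.6, 31.1 and 47.9 at P80, against 102, 74.6 and 91.9 at P21. It had the widest difference of the list, -1.44 ± 0.27 (adjusted p 0.00904), with no overlap. Exons of Fdps and of a predicted gene share the same strand in GENCODE vM21, so its count is uncertain.

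In the sterol branch, Sqle, the squalene epoxidase, stood at 373.5, 539, 320 and 450.4 at P80, against 832, 700.5 and 643 at P21. Lss, the lanosterol synthase, stood at 729, 742, 651 and 763 at P80, against 1680, 1411 and 874 at P21, where ES16 came nearest to the adult libraries. The difference of Lss was -0.82 ± 0.16 (adjusted p 0.0101) and -1.10 without ES16. Hsd17b7, a sterol ketoreductase, stood at 95.3, 154, 127 and 148 at P80, against 288, 295 and 253 at P21, a difference of -1.10 ± 0.17 (adjusted p 0.00265).

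The difference of Sqle was -0.80 ± 0.16 (adjusted p 0.0110). In all, 8 genes of the list kept the call with each library left out, among them Hmgcs1, Mvk, Fdps, Sqle, Lss and Hsd17b7. Of the genes that did not, Ebp lost it without ES16, Pmvk without ES2 or ES16, Cyp51 without ES2, ES6 or ES12, Idi1 without ES2, ES6, ES12 or ES14, and Insig1 without ES2, ES4, ES6, ES12 or ES16. The 7 genes that did not pass were Mvd (-1.11, adjusted p 0.0594), Tm7sf2 (-0.63, 0.0629), Dhcr7 (-0.56, 0.0685), Nsdhl (-0.57, 0.0939), Fdft1 (-0.48, 0.218), Sc5d (-0.27, 0.232) and Srebf2 (-0.15, 0.547). Srebf2 encodes SREBP2 itself. It stood at 845, 1106, 1007 and 1438 at P80, against 1415, 1143 and 1064 at P21, and the groups overlapped. Exons of Hmgcs1 and Lss overlap genes on the other strand, and no source used here gives the strand setting of the counting.

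**Figure D3:**
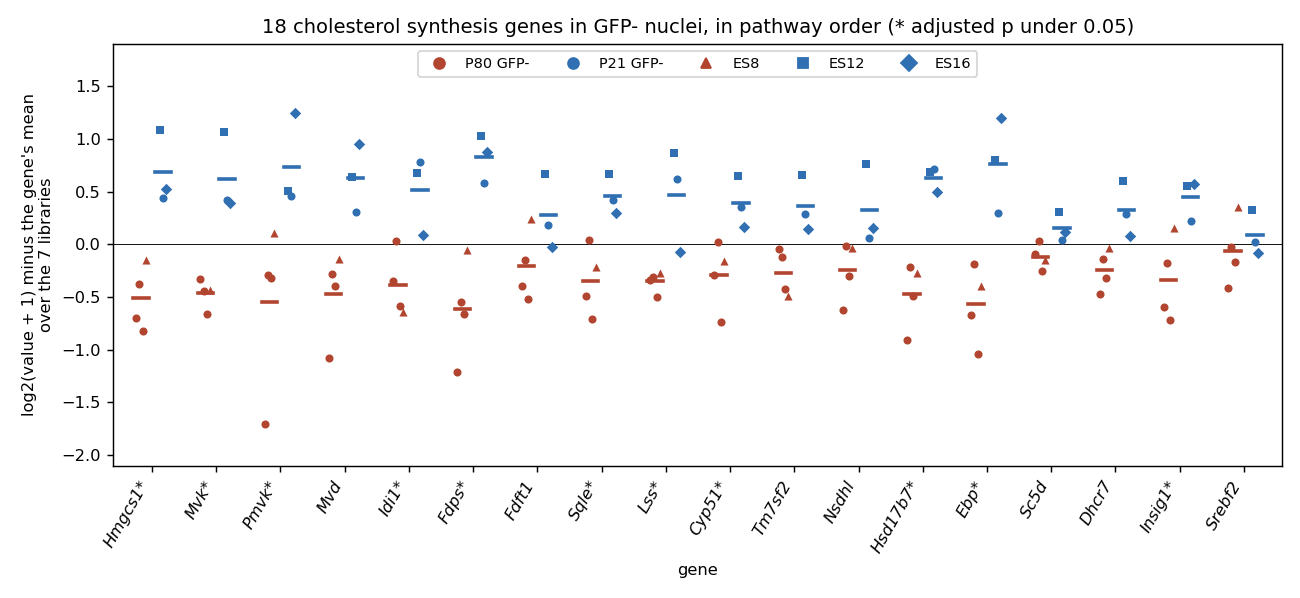
For 18 of the 21 cholesterol synthesis genes, in pathway order, values are shown, with the 4 P80 GFP- libraries (red) left of the 3 P21 GFP- libraries (blue). The vertical axis is log2(normalized value + 1) minus the gene's mean over the 7 libraries, short bars are group means, and ES8, ES12 and ES16 have their own symbols. A star marks an adjusted p under 0.05, which 11 of the genes shown reached, and the P80 libraries lie wholly below the P21 libraries in 16 of the 18.

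The mean log2 level of the whole list was 7.38, 7.76, 7.43 and 7.82 in P80 libraries, against 8.66, 8.32 and 8.35 in P21 libraries. At P7 it was 8.25 ± 0.22 (SD, n = 4), so the level of the list was similar at P7 and P21 and lower at P80. The number of list genes called ranged from 9 to 17 as single libraries were left out. It was 11 without ES16, with a median of -0.95, where 0.698% of all genes were called lower. It was 14 without ES8 and ES12 together, where 6.83% were. With each library centred on its own median it was 6, beside 0.634%, and the list median was -0.64. With limma's library weights, under which 0.161% of all genes were called lower, it was 4. With the 11 GFP- libraries alone none of the 21 was called, although 18 had an unadjusted p under 0.05, beside 7.3% of all genes lower in that fit. Astrocyte markers tended the same way as the list: their summed value was 12630 to 20090 at P80, against 19040 to 36450 at P21. The ages overlapped, with ES14 below ES8. Summed markers of oligodendrocyte precursors were 6080 to 10030 at P80, against 18320, 9512 and 6578 at P21. For these summed precursor markers ES12 lay above the adult range, and ES14 and ES16 lay inside it. The part of either in the difference was not tested.

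Beside its median of -0.82 in GFP- nuclei, the cholesterol list had a median of -0.20 in GFP+ nuclei of the same animals, and none of its genes was called there between P80 and P21. Hmgcs1 differed by -1.20 in GFP- nuclei and by -0.49 in GFP+ nuclei (adjusted p 0.462). The test of the difference between the populations called 0 of these genes after adjustment. Its unadjusted p was under 0.05 for 14 of the 21, beside 7.3% of all genes.

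Genes of differentiating oligodendrocytes were also lower at P80. Of 18 tested, 10 were called lower, beside 1.17% of all genes, and none higher, with a median of -1.06, and 17 of 18 had a difference below 0. The P80 libraries lay wholly below the P21 libraries in 11, beside 4.18% of all genes. This list too was chosen with earlier results known, so these shares describe it and are no independent test. Gpr17, an orphan receptor present for a short time in committed precursors, stood at 185, 321, 220 and 432 at P80, against 2120, 953 and 537 at P21. Every P80 library was below every P21 library, and the P21 libraries themselves differed widely, from ES12 to ES16. The log2 difference of Gpr17 was -1.90 ± 0.37 (SE, adjusted p 0.0136), and -2.37 without ES16. Exons of Gpr17 overlap those of Lims2 on the other strand, and reads of the pair cannot be told apart without strand.

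Itpr2, the type 2 inositol trisphosphate receptor, stood at 479, 602, 495 and 758 in P80 libraries, against 1868, 1110 and 829 in P21 libraries. Fyn, a kinase that signals from axon contact to the myelinating cell, stood at 409, 455, 422 and 501 at P80, against 895, 752 and 609 at P21. The groups overlapped for neither gene, with differences of -1.06 ± 0.20 (adjusted p 0.0101) for Itpr2 and -0.74 ± 0.12 (adjusted p 0.00500) for Fyn. Pik3r3, a regulatory subunit of PI 3-kinase, stood at 403.5, 425, 408 and 383 at P80, against 711, 804 and 579 at P21 (-0.77 ± 0.15, adjusted p 0.0101). Kif19a, a kinesin, stood at 20.9, 60.4, 45.1 and 52.4 at P80, against 168, 154 and 121 at P21 (-1.79 ± 0.33, adjusted p 0.00828). These 5 genes, Gpr17 included, kept the call with each library left out. Exons of Pik3r3 and Bmp4 overlap other genes, so their counts are uncertain.

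The other 5 called genes were Cnksr3 (-1.46), which lost the call without ES2, Bmp4 (-2.60), lost without ES2 or ES16, Casr (-2.70), lost without ES6 or ES16, Rras2 (-1.32), lost without ES16, and Rnf122 (-1.03), lost without ES2, ES4, ES6 or ES12. Bmp4 encodes a secreted signal that newly formed oligodendrocytes make. Casr, the calcium-sensing receptor, was near the limit of detection at P80, at 2.61, 3.36, 0 and 0, against 7.93, 20.2 and 10.4 at P21. Bcas1, a marker of premyelinating cells, stood at 577, 1002, 528 and 1644 at P80, against 2533, 1405 and 707 at P21. Its groups overlapped, since ES8 lay above ES14 and ES16, and it was not called (-0.69, adjusted p 0.260).

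Of 35 myelin protein genes none was called with all libraries, and their median was 0.14, or -0.15 without ES16. Without ES8, 4 of 35 were called lower, beside 5.33% of all genes, and without ES8 and ES16 together 8 were, beside 2.64%. Without ES8 and ES12 together 1 was called lower, beside 6.83%, and 2 higher, beside 641 of all 18614 genes. Without ES12 alone 0 were called lower, beside 2.75%, and 2 higher, beside 283 of 18614. With all libraries 5 were higher and 1 lower at an unadjusted limma p under 0.05, beside 7.83% and 12.5% of all genes. Mbp, myelin basic protein, stood at 8094, 13890, 8560 and 26670 at P80, against 35730, 19930 and 10420 at P21. Mobp, another structural myelin gene, stood at 3452, 6357, 4044 and 12490 at P80, against 17530, 10170 and 4072 at P21. Both overlapped between ages, and in both ES8 was the highest P80 library and ES12 the highest P21 library. Il33, a nuclear cytokine of oligodendrocytes and astrocytes, stood at 319, 572, 233 and 1269 at P80, against 54.5, 30.4 and 859 at P21. Only ES16 of the P21 libraries reached the adult range, and without ES16 Il33 was called higher at P80 with a difference of 3.53 (adjusted p 0.000853). With ES16 it was 2.08 (adjusted p 0.137). Ptgds, prostaglandin D synthase, stood at 454.5, 617, 536 and 1927 at P80, against 157.5, 107.5 and 49.8 at P21. The groups did not overlap, but the difference of 2.94 ± 0.98 did not pass (adjusted p 0.119).

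The number of differentiating genes called was between 7 and 14 as single libraries were left out. It was 8 without ES16, with a median of -1.26, beside 0.698% of all genes, and 12 without ES8 and ES12 together, beside 6.83%. It was 4 with each library centred on its median, beside 0.634%, and 4 with limma's library weights, beside 0.161%. With the 11 GFP- libraries alone none was called and 15 had an unadjusted p under 0.05, beside 7.3% of all genes. The mean log2 level of the list was 6.89, 7.52, 7.10 and 7.56 in P80 libraries, against 8.71, 8.44 and 8.26 in P21 libraries. At P7 it was 9.10 ± 0.22 (SD, n = 4). The level was thus lower at each later age. The myelin list ran the other way from P7, at 7.93 ± 0.17 (SD, n = 4), to P21, at 10.08, 9.07 and 8.73, and its P80 libraries spread over 8.83, 9.70, 8.94 and 10.70.

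**Figure D4:**
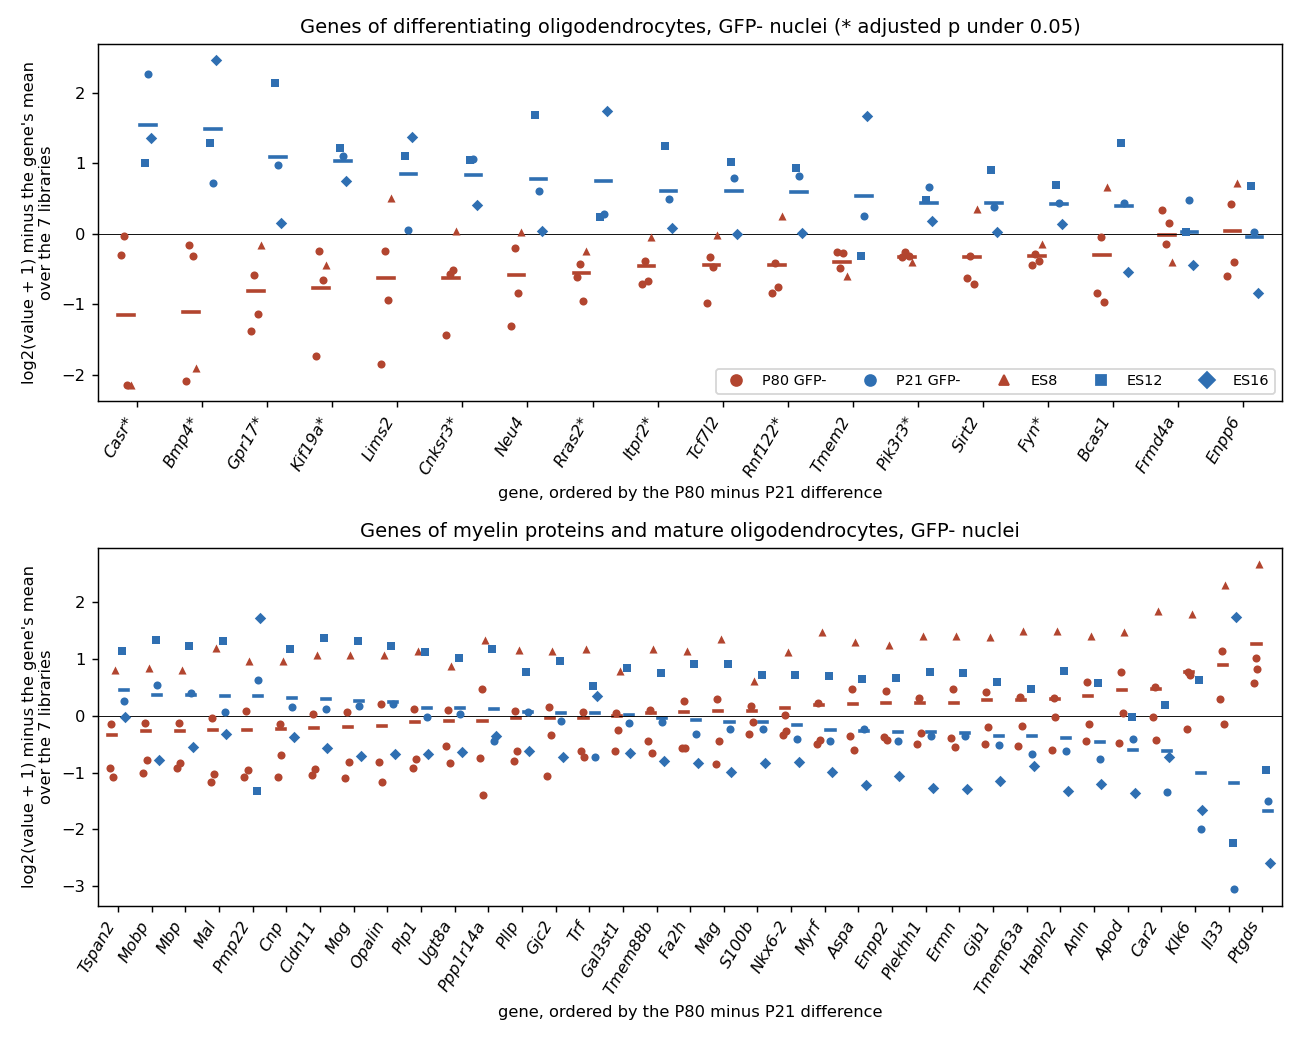
The upper panel shows the 18 genes of differentiating oligodendrocytes and the lower panel 35 genes of myelin and mature oligodendrocytes, each ordered by its P80 minus P21 difference, with P80 GFP- libraries (red) left of P21 GFP- libraries (blue). The vertical axis is log2(normalized value + 1) minus the gene's mean over the 7 libraries, and short bars are group means. A star marks an adjusted p under 0.05, which 10 genes above and 0 below reached. In the lower panel ES8 among P80 libraries and ES12 among P21 libraries lie high across genes.

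Of 15 precursor markers, Gpr17 alone was called, and the list median was -0.41. Without ES16 all 15 had a difference below 0, 3 were called lower, beside 0.698% of all genes, and the median was -0.85. Pdgfra, the receptor that defines the precursor, stood at 296, 606, 278 and 617 at P80, against 1204, 532 and 1026 at P21. ES14 fell inside the adult range, and the difference of -1.05 was not called (adjusted p 0.106).

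Of 30 cell cycle genes, 4 were called lower, beside 1.17% of all genes, and none higher at P80, and the median of the list was -0.96. The count was 2 without ES16, ES4 or ES6, beside 0.698%, 0.698% and 0.672% of all genes. It was 6 without ES8, beside 5.33%, 8 without ES12, beside 2.75%, and 11 without ES14, beside 8.61%. Mki67, the proliferation antigen, stood at 26.1, 51.4, 29.1 and 45.2 in P80 libraries, against 87.2, 139 and 546 in P21 libraries, and averaged 1203 ± 448 (SD, n = 4) at P7. The 2 later ages did not overlap, for a difference of -2.33 ± 0.43 (SE, adjusted p 0.00904). Top2a, topoisomerase II of dividing cells, stood at 9.14, 22.4, 11.03 and 17.2 at P80, against 37.7, 60.7 and 554 at P21 (-2.86 ± 0.58, adjusted p 0.0137). In both genes ES16 was several times higher than the other P21 libraries, yet both kept the call without it, at -1.57 for Mki67 and -1.69 for Top2a. Exons of Top2a overlap a predicted gene on the same strand, so its count is uncertain. Bub1 and Kif11, which act in mitosis, lost the call without ES4, ES6 or ES16. For the list as a whole ES16 carried much of the difference: its mean log2 level was 4.54, 4.26, 4.31 and 4.45 at P80, against 4.66, 4.78 and 7.15 at P21, and without ES16 the median difference was -0.13.

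Astrocyte markers lay below 0 in 23 of 25 genes, with a median of -0.57, but Aqp4 alone was called. Aqp4, the water channel of astrocyte endfeet, stood at 726, 1053, 834 and 925 at P80, against 2515, 1445 and 1239 at P21, and its difference of -0.91 ± 0.23 (adjusted p 0.0415) lost the call without ES2, ES4, ES6 or ES12. Gfap, the intermediate filament of astrocytes, stood at 245.5, 375, 464 and 341 at P80, against 994, 625 and 417 at P21 (-0.87, adjusted p 0.0726). ES16 fell inside the adult range for Gfap. Without ES16, 6 of the 25 markers were called lower, beside 0.698% of all genes, and the median was -0.78. Gfap was among the 6, at -1.18 (adjusted p 0.0291).

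Fatty acid and sphingolipid synthesis, the other lipid pathways of myelin, had 3 of 20 genes called lower, beside 1.17% of all genes, and none higher, with a median of -0.43. The count was 1 without ES16, beside 0.698% of all genes, 8 without ES8, beside 5.33%, and 9 without ES14, beside 8.61%. Fads2, a fatty acid desaturase, stood at 142, 154, 145 and 170.0 in P80 libraries, against 372.5, 217.5 and 319 in P21 libraries, a difference of -0.95 ± 0.17 (adjusted p 0.00673) that held with each library left out. Acly, which makes cytosolic acetyl-CoA (-0.89), lost the call without ES16, and Fads1, a second desaturase (-0.65), without ES2 or ES16.

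Endothelial genes had 2 of 21 called lower, beside 1.17% of all genes. The count was 8 without ES8, beside 5.33%, and 8 without ES14, beside 8.61%. Cxcl12, a chemokine of vessels and meninges, stood at 49.6, 47.0, 63.2 and 64.2 at P80, against 167, 148 and 822 at P21 (-2.28 ± 0.45, adjusted p 0.0136), and kept the call with each library left out. Mfsd2a, the lipid transporter of the blood-brain barrier, stood at 41.8, 85.0, 102 and 114 at P80, against 427, 200 and 160.3 at P21, and lost the call without ES2 or ES12. For the list as a whole the median of -1.74 became -0.63 without ES16, whose endothelial markers sum to the value given above. Flt1, a defining endothelial receptor, stood at 52.2, 34.7, 40.1 and 118 at P80, against 102, 94.8 and 766 at P21, overlapped and was not called (adjusted p 0.0912). Of 30 Notch, Wnt and BMP signaling genes, Bmp4, Id3 and Hey1 were called lower, beside 1.17% of all genes. None of the 30 was called without ES16, beside 0.698%.

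No gene of the pan-neuronal, inhibitory, excitatory or neuropeptide lists was called. The pan-neuronal median was 0.43 over 16 genes, of which 3 had an unadjusted p under 0.05, all higher at P80, beside 7.83% of all genes. Snap25, a synaptic vesicle fusion protein, stood at 3687, 2705, 3334 and 1564 in P80 libraries, against 1246, 2758 and 1385 in P21 libraries. Rbfox3, which encodes the neuronal antigen NeuN, stood at 780, 576, 761 and 255.0 at P80, against 263.5, 618 and 372 at P21. In both genes ES8 was the lowest P80 library and ES14 the highest P21 library, and the groups overlapped. Gad1, which makes GABA, stood at 454.5, 421, 525 and 178 at P80, against 175, 516 and 259 at P21. Without ES8, 10 of 16 pan-neuronal genes, 15 of 27 genes of presynaptic release and 12 of 25 voltage-gated sodium, calcium or HCN channel genes were called higher at P80, beside 5.35% of all genes in that fit. Without ES14, which leaves ES8 in, 4, 12 and 6 genes of these lists were called higher, beside 5.55% of all genes. Without ES8 and ES12 together 3, 8 and 8 were called higher, beside 641 of all 18614 genes. In that fit 1 presynaptic release gene was called lower, beside 6.83% of all genes. With all libraries no gene of these lists was called. These libraries also differ in the glial share of their values, as given above, and its part was not tested.

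Among neuronal signaling genes, 2 of 7 metabotropic glutamate receptors and 3 of 34 potassium channel genes were called higher at P80, beside 0.784% of all genes. Without ES16 the counts were 0 and 1, beside 0.236% of all genes, and without ES8 they were 4 and 9, beside 5.35%. Grm3, a group II receptor that glia also express, stood at 456, 567, 475 and 1009 at P80, against 329, 273 and 142 at P21 (1.34 ± 0.27, adjusted p 0.0146), and lost the call without ES16. Kcnab1, a beta subunit of Kv1 channels, stood at 392, 361, 360.0 and 449.5 at P80, against 182, 265.5 and 124 at P21. Its difference of 1.09 ± 0.21 (adjusted p 0.0101) held with each library left out. Kcna6, a Kv1 channel subunit, and Kcnq3, an M-current subunit of the axon initial segment, lost the call without ES16, Kcna6 also without ES4. Grm7, a presynaptic receptor, overlapped between ages and lost the call when any of 5 libraries was left out. Exons of Kcna6 and Grm7 overlap predicted genes on the other strand.

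**Figure D5:**
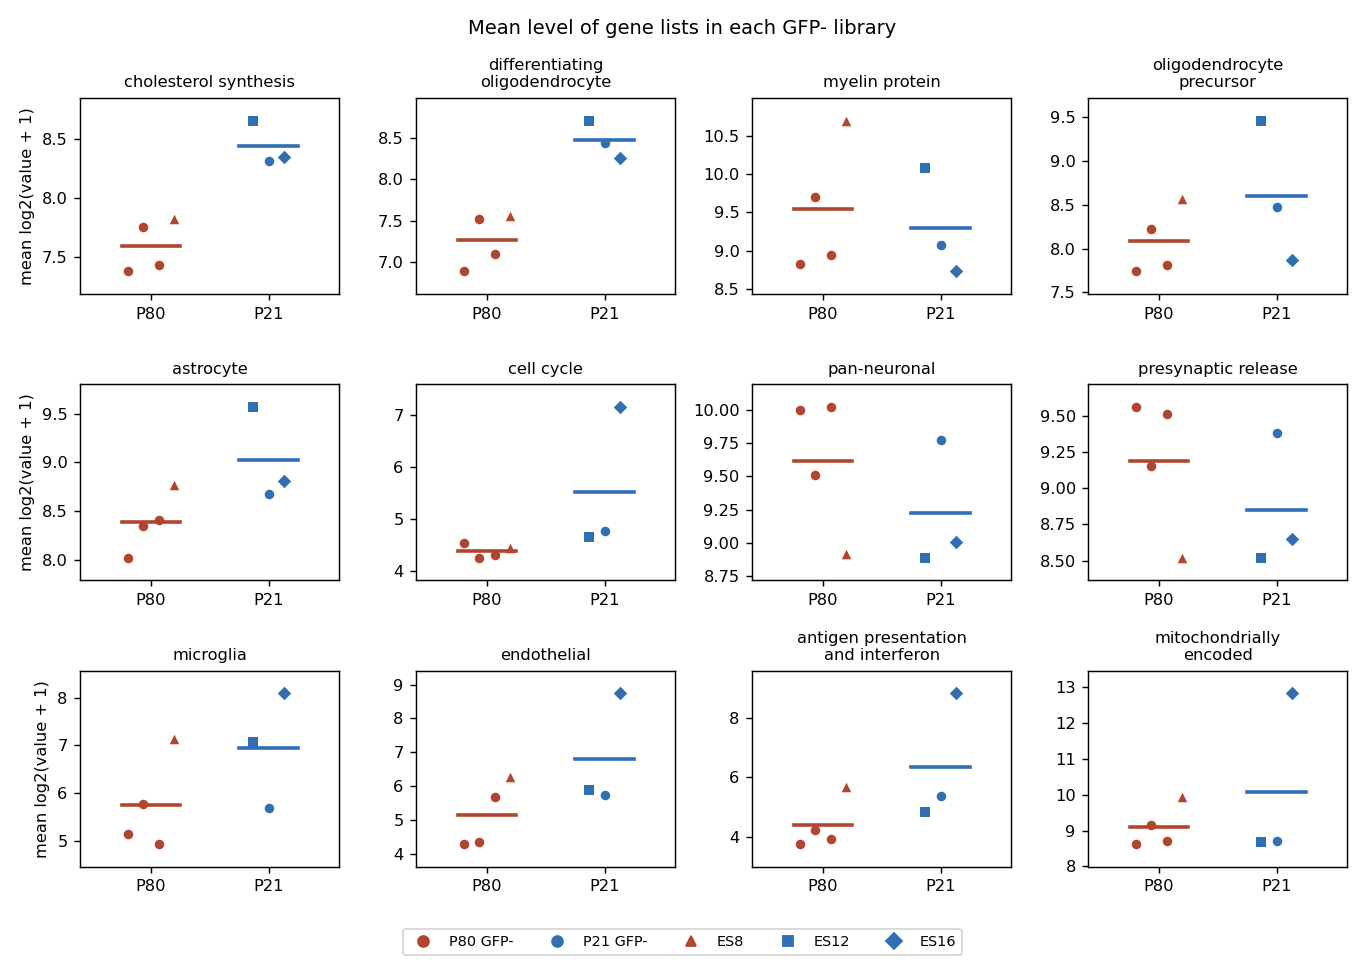
Each panel shows the mean log2(normalized value + 1) of 1 gene list in each P80 GFP- library (red, left) and each P21 GFP- library (blue, right), with short bars for group means and separate symbols for ES8, ES12 and ES16. The cholesterol and differentiating oligodendrocyte panels show no overlap of the ages. ES16 lies far above the other libraries in the mitochondrially encoded panel, at 12.83, and ES8 is the highest in the myelin panel, at 10.70.

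Of the genes higher at P80, the 12 widest differences among well-expressed genes without overlap, clone names left out, were, from the highest, Abca6, Fmn1, Pex5l, Cntn2, Sez6l2, Grm3, Chdh, Dock9, Pvt1, Adam11, Kcnab1 and Ttn. Abca6, a lipid transporter of the ABC family, stood at 192, 302, 181.5 and 423 in P80 libraries, against 88.2, 101 and 71.7 in P21 libraries, a difference of 1.57 ± 0.28 (SE, adjusted p 0.00779). Fmn1, a formin that nucleates actin filaments, stood at 405, 423, 322 and 593 at P80, against 160.5, 171 and 165 at P21. The 3 P21 values of Fmn1 were nearly equal, ES16 included, and its difference of 1.36 ± 0.17 (adjusted p 0.000262) was 1.36 without ES16 too. Both genes kept the call with each library left out. Exons of Fmn1, Pex5l, Sez6l2, Chdh, Kcnab1 and Ttn overlap other genes, so their counts are uncertain.

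Cntn2, an adhesion molecule of the juxtaparanode that axons and oligodendrocytes share, stood at 2194, 3328, 2486 and 6573 at P80, against 2140, 1288 and 797 at P21. Pex5l, which controls the trafficking of HCN channels, stood at 1964, 2828, 1914 and 6246 at P80, against 1799, 1256 and 621 at P21. Dock9, an activator of Cdc42, stood at 4992, 7832, 5064 and 15620 at P80, against 4458, 3166 and 2523 at P21. In all 3 genes ES8 stood well above the other adult libraries and ES12 came close to the lowest of them, and all 3 lost the call without ES16. ES8 was the highest of the 7 libraries in 65 of the 146 genes called higher at P80, and ES16 the lowest of the 7 in 101. The same counts over all genes tested were not made. ES8 also had the highest summed myelin value; its part was not tested.

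Sez6l2, a synaptic membrane protein, stood at 834.5, 1224, 1135 and 2476 at P80, against 649, 550.0 and 376 at P21, and kept the call with each library left out (1.34 ± 0.24, adjusted p 0.00723). Pvt1, a long noncoding RNA, stood at 309.5, 221.5, 235 and 254 at P80, against 79.3, 169 and 112 at P21 (1.14 ± 0.20, adjusted p 0.00677), and also kept it. Its count is uncertain, since small RNA genes lie in its exons. Chdh, a choline dehydrogenase (1.28), Adam11, a catalytically inactive ADAM protein (1.09), and Ttn, the sarcomere protein titin (1.08), lost the call without ES16, Chdh also without ES4 or ES6.

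Of the genes lower at P80, the 12 widest by the same rule were, from the lowest, Mgp, Mki67, Gpr17, Col9a3, Ctps, Pcdh18, Cnksr3, Arpc1b, Inppl1, Rps9, Klhl5 and Adamtsl2. Mgp, matrix Gla protein, an inhibitor of calcification, stood at 6.53, 19.02, 7.02 and 340.0 in P80 libraries, against 794, 1085 and 3044 in P21 libraries. Its difference of -5.77 ± 1.30 (SE, adjusted p 0.0309) was the widest, but the adult library ES8 lay far above the other 3 and the call was lost without ES2, ES4, ES6 or ES16. At P7 Mgp averaged 81.4 ± 40.3 (SD, n = 4), so P21 was the age with the highest values.

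Col9a3, a chain of collagen IX, stood at 77.1, 87.2, 83.2 and 131 at P80, against 482, 274 and 147 at P21 (-1.53 ± 0.30, adjusted p 0.0110). Ctps, a CTP synthase, stood at 77.1, 103, 141 and 96.8 at P80, against 252, 194 and 476 at P21 (-1.47 ± 0.25, adjusted p 0.00471). Adamtsl2, a protein of extracellular microfibrils, stood at 54.9, 40.3, 45.1 and 43.4 at P80, against 107, 119 and 135 at P21. Both groups of Adamtsl2 spread little and did not overlap, with a difference of -1.37 ± 0.17 (adjusted p 0.000262). These 3 genes, with Pcdh18, a protocadherin (-1.47), and Klhl5 (-1.37), kept the call with each library left out. Arpc1b, an actin-nucleating subunit (-1.41), lost it without ES16, Inppl1, a lipid phosphatase (-1.41), without ES2, ES4 or ES12, and the ribosomal protein gene Rps9 without ES2, ES4, ES6 or ES16. Exons of Col9a3, Arpc1b and Inppl1 overlap other genes, and Rps9 has pseudogene copies, so their counts are uncertain.

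The 5 genes that were called even when the fit held the 11 GFP- libraries alone were Prom1, Smurf1, Nckap5, BC046251 and Fmn1; apart from Fmn1 they are named after their values were seen. Prom1, a cholesterol-binding membrane glycoprotein known as CD133, stood at 30.04, 27.96, 39.1 and 34.4 in P80 libraries, against 258, 283 and 366.5 in P21 libraries, a difference of -3.16 ± 0.33 (SE, adjusted p 3.33e-05). The 4 adult libraries lay within a narrow range, and the P21 mean was 9.2 times the P80 mean. At P7 Prom1 averaged 133 ± 14.0 (SD, n = 4), between the later ages. In GFP+ nuclei it was also lower at P80, by -2.28 (adjusted p 0.00445). Exons of Prom1 overlap a predicted gene on the other strand.

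Smurf1, a ubiquitin ligase that targets SMAD proteins, stood at 341, 291, 300 and 304 at P80, against 581, 542 and 599 at P21. At P7 it averaged 591 ± 38.8 (SD, n = 4), close to P21. The difference of -0.89 ± 0.09 (SE, adjusted p 3.33e-05) held with each library left out, and in GFP+ nuclei Smurf1 differed by -0.12 (adjusted p 1). The test between populations gave Smurf1 an unadjusted p of 7.31e-06 and an adjusted p of 0.136. Nckap5 stood at 212, 236, 188 and 253 at P80, against 500, 502 and 526 at P21 (-1.20 ± 0.18, adjusted p 0.00247), after 829 ± 60.6 (SD, n = 4) at P7. The noncoding gene BC046251 stood at 11.8, 12.3, 17.1 and 14.5 at P80, against 87.2, 60.7 and 53.0 at P21 (-2.17 ± 0.36, adjusted p 0.00471). Its exons overlap a predicted gene on the other strand.

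Fbxw15, an F-box gene of a multigene cluster, also chosen after its values were seen, stood at 52.2, 103, 47.1 and 230 in P80 libraries, against 6.94, 2.53 and 0.547 in P21 libraries. The 0.547 in ES16 is a single read. The difference of 4.66 ± 0.70 (SE, adjusted p 0.00247) held with each library left out, with the reserve that reads of the cluster's copies may be shared. Igf1r, the receptor of insulin-like growth factor 1, stood at 508, 523.5, 473 and 695.5 at P80, against 368, 335 and 348 at P21 (0.63 ± 0.12, adjusted p 0.00904), and Igf2bp2, an mRNA-binding protein of growing tissue, at 16.98, 32.4, 23.1 and 40.7 at P80, against 118, 79.7 and 79.9 at P21 (-1.72 ± 0.26, adjusted p 0.00262). Both kept the call with each library left out.

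GFP+ nuclei of the same animals gave 45 genes (0.242%) called lower and 0 (0%) called higher at P80 than at P21 by limma, with 1006 genes at an unadjusted p under 0.05 in either direction. edgeR called 5 lower and 0 higher there, and DESeq2 71 lower and 7 higher. Of the 45, 8 were also called lower in GFP- nuclei, which is 8 of 217 there, and 35 had a GFP- difference below 0. Gpr17 differed by -1.90 in GFP- nuclei and by -2.84 in GFP+ nuclei (adjusted p 0.00411). Mbp differed by -0.62 in GFP- nuclei (adjusted p 0.298), against -2.17 in GFP+ nuclei (adjusted p 0.00564). The myelin list had 0 of 35 genes called and a median of 0.14 in GFP- nuclei, against 9 of 35 called lower and a median of -1.27 in GFP+ nuclei. For 23 of the 35 the test of the difference between populations had an unadjusted p under 0.05, and it called 0 of them after adjustment. The test of the difference between populations called 0 genes (0%) with limma, with 1359 (7.3%) at an unadjusted p under 0.05. edgeR also called 0, with 1889 at an unadjusted p under 0.05, and DESeq2 called 28.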

How the data were processed

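Nuclear RNA of sorted GFP+ and GFP- dorsal horn nuclei was sequenced in 22 samples. Per the labels' protocols, libraries were NuGEN SoLo with 15 amplification cycles, read on an Illumina HiSeq. STAR, HTSeq, DESeq2, cutadapt and Trim Galore are listed, per the submitters' processing notes, with no version. Genome build, annotation and strand setting were not given in the sources used here. Per-library columns hold a normalized signal as deposited by the authors: within a tolerance of 0.01, 100% of values were whole multiples of 1 step per library (0.547 to 1.31 for 1 read), so whole reads could be recovered.

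Age was read from the authors' per-age sheets and population from the across-age sheets, since the labels do not repeat the library codes. A gene was tested if 3 or more libraries held a value of 10 or more, which 18614 of 21363 genes did. limma 3.58.1 in R 4.3.3 (trend and robust options) fitted 6 group means to log2(value + 1) over all 22 libraries. Tests are two-sided, and calls have a Benjamini-Hochberg adjusted p under 0.05 over all genes tested. Fold changes of low genes are understated on this scale. edgeR 4.0.16 and DESeq2 1.42.0 on the recovered reads, other pseudocounts, filters and scalings, libraries left out and fits of GFP- libraries alone were alternatives. The fits were tested on simulated data, and no outcome for groups of unequal spread is given here.

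Members and the 54 gene lists were chosen with earlier results of these data known. A few genes counted in the lists are not reported here by name. Named genes are the 12 highest and 12 lowest differences among called genes at or above the median level without overlap of the ages, together with called members of lists and defining markers. Clone, Gm, Rik and microRNA names, pseudogenes and mitochondrially encoded or sex-linked marker genes were left out of the ranking. Other genes were chosen after their values were seen. Replicates are separate animals; their number, not depth, limits the precision. Libraries of a group differed beyond counting noise, with a chi-square per degree of freedom of at least 3.40. Promoter sequences are from RefSeq (GRCm38.p6), and exon overlaps from GENCODE vM21, in which 20984 gene identifiers were found.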

Additional observations from a re-analysis of the deposited data

Results flagged for a closer look

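Of 77 list scores and single values checked in the 4 P80 GFP- libraries, 5 had a library whose gap to its nearest neighbour exceeded Dixon's critical share of the range, and chance gives about 1 in 20. ES8 was that library in all 5. Its mean log2 level of opioid receptors and precursors was 4.72, against 6.51 in the nearest adult library. Its level of GABA-A receptor, glycine receptor and chloride transporter genes was 7.5, against 8.15, and of axon guidance genes 7.68, against 8.07. ES8 was highest for microglial activation genes at 5.83, against 4.97, and for red blood cell genes at 6.10, against 2.84.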

How the results depend on the processing

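All 363 genes called between P80 and P21 kept the sign of their difference in every alternative that tested them, but the count of calls did not hold. As single libraries were left out the total ranged from 174 to 2637, the genes higher at P80 from 44 to 1034, the genes lower at P80 from 104 to 1603, and the genes whose age difference differed between GFP- and GFP+ nuclei from 0 to 8. Totals, with genes higher and lower at P80, were 35 (5 and 30) with limma's library weights, 1334 (297 and 1037) with edgeR, 1997 (500 and 1497) with DESeq2, 5 (1 and 4) with the 11 GFP- libraries alone, 1 (0 and 1) with the 7 GFP- libraries of P80 and P21 alone, and 1912 (641 and 1271) without ES8 and ES12. Alternatives chosen after seeing the data gave 3 (0 and 3) with edgeR on the 11 GFP- libraries, 836 (344 and 492) without ES8 and ES16, and 224 (47 and 177) with edgeR without ES16. Centring each library on its median gave 328 calls, 210 higher and 118 lower, so that 64.0% were higher at P80 instead of 40.2%; it moved the median difference of all genes to 0.15 and that of Srebf2 to 0.03, from below 0. The other pseudocounts, filters and TMM scaling gave 349 to 449 calls. The difference between populations called 1 gene with genes at 50 or more, 28 with DESeq2, 33 without ES8 and ES12, 2 without ES8 and ES16 and 1 with edgeR without ES16. The causes were not tested. Of 81 called genes followed singly, 49 kept the call without ES16, 58 without ES2, 80 with edgeR, 17 with limma's library weights, 5 with the 11 GFP- libraries and 1 with the 7. No paired analysis was possible because the columns carry no animal or replicate number. With 4 and 3 libraries a group, and GFP- libraries that spread more than GFP+ ones, a gene that was not called may still differ.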

Other observations

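Outside the groups above, single members of other lists were lower at P80. Dbp, a transcription factor of the circadian output, stood at 104.5, 152, 97.3 and 180.0 in P80 libraries, against 347, 219 and 232.5 in P21 libraries, and its difference of -1.01 (adjusted p 0.0285) lost the call without ES2, ES6 or ES12; the hour of dissection is not in the labels. Uhrf1, which maintains DNA methylation in dividing cells, stood at 5.22, 2.24, 2.005 and 2.71 at P80, against 20.8, 15.2 and 72.8 at P21 (-2.94, adjusted p 0.0145), and lost it without ES16. Marcksl1, a protein of immature neurons, stood at 13.1, 32.4, 16.0 and 28.9 at P80, against 53.5, 40.5 and 73.3 at P21, and averaged 102 ± 17.5 (SD, n = 4) at P7. Its call was lost without ES2, ES6 or ES16. Exons of Dbp overlap those of Sphk2 on the other strand.

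Matrix and guidance genes went both ways. Col11a1, a fibrillar collagen chain, stood at 2404, 1910, 2123 and 1601 in P80 libraries, against 1214, 1630 and 1068 in P21 libraries, overlapped, and was called higher (0.63, adjusted p 0.0364) until any of ES2, ES4, ES6, ES12 or ES16 was left out. Col20a1 (-1.21) was called lower but lost the call without ES2, ES4, ES12 or ES14, and its exons overlap another gene on the same strand. Col23a1 (-1.06) lost its call without ES2, ES4, ES6 or ES16. Robo1, a receptor of Slit guidance cues, stood at 628, 585, 598 and 578 at P80, against 376.5, 487 and 356 at P21, with no overlap (0.57, adjusted p 0.0136), and Sema5a, a semaphorin, at 806, 895, 836 and 577 at P80, against 1466, 1549 and 866 at P21 (-0.71, adjusted p 0.0240). Robo1 lost the call without ES16 and Sema5a without ES12.

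Of the 54 lists, 33 had no called gene, among them microglia, antigen presentation and interferon, mural cells, ependyma and mitochondrially encoded genes. For antigen presentation and interferon genes the median was -1.79, with 14 of 20 lower at an unadjusted p under 0.05, beside 12.5% of all genes. Without ES16 the median was -0.49 and 3 of 20 were lower at that threshold. In that fit 2168 of all 18614 genes had an unadjusted p under 0.05 in either direction.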
